A study of Mus musculus with 18 samples.

Results

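The 10 genes described here encode proteins that copy, transcribe and package mitochondrial DNA, together with nuclear transcription factors that act on such genes. Tfam, Tfb1m, Tfb2m, Polrmt, Polg, Polg2, Twnk, Ssbp1, Nrf1 and Gabpa were chosen by name and matched by symbol, and each matched 1 of the 21938 protein-coding genes of GENCODE M21 on GRCm38. The data were lists of broad ChIP-seq peaks of KDM2A and of dimethylated lysine 36 of histone H3 (H3K36me2) in splenic B cells from C57BL/6 mice with (WT) or without (KO) a working Mir155 gene, with 3 libraries per genotype and antibody. Cells of both genotypes were depleted of CD43, Ter119 and CD4 positive cells, stimulated with anti-CD40, anti-IgM F(ab')2 and IL-4, and cultured for 2 days at 1% O2, so the cultures compared differed in genotype and shared low oxygen. In every group replicate 1 came from a male and the other replicates from females. An age range was given for all mice of the study together and none for a library. Nothing tied a KDM2A library to an H3K36me2 library of the same animal, and 6 input libraries were not analysed here. The KO cells came from Mir155-deficient mice kept on the C57BL/6 J background. No source said how many mice went into a library, and p-values therefore measure the spread between libraries only.

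Mitochondria keep a small circular genome of many copies per cell. TFAM coats this DNA and opens its promoters, TFB2M and the RNA polymerase POLRMT start transcription there, and TFB1M methylates the small ribosomal RNA. POLG and its accessory subunit POLG2 copy the DNA, TWNK is the helicase that unwinds it, and SSBP1 holds the single strands. NRF1 and GABPA are nuclear transcription factors known to drive many genes of mitochondrial proteins, Tfam, Tfb1m and Tfb2m among them. KDM2A removes methyl groups from H3K36me2 and binds unmethylated CpG dinucleotides through a zinc finger, so that it is usually found at CpG-rich promoters. The study asked whether the loss of miR-155 changes where KDM2A sits and where H3K36me2 lies, and the genes here were read for both.

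Because KDM2A reads CpG dinucleotides, the sequence at the start of the genes is shown first. The lines give 200 bases around the RefSeq start site of GRCm38.p6, from 170 bases before it, 5′ to 3′ on the strand of the gene, with every CpG in capitals. Nrf1 (chr6:30047818-30048017, plus strand) held 29 CpG in these 200 bases and Twnk (chr19:45005493-45005692, plus strand) held 5, the most and the fewest of the 10 genes. Polg2 (chr11:106779508-106779707, minus strand) carried the highest KDM2A fold of the 10 genes and Tfb1m (chr17:3557726-3557925, minus strand) had KDM2A peaks in the fewest libraries, although both held 14 CpG here.
Nrf1 promoter: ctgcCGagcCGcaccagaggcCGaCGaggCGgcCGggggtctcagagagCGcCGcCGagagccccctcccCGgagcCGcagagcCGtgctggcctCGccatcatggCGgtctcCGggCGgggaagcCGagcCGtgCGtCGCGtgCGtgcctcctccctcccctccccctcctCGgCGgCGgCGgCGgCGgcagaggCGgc
Twnk promoter: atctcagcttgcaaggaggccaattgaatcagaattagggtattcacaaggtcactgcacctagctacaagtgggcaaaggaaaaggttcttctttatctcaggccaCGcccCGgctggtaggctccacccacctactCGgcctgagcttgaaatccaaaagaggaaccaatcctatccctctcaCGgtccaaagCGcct
Polg2 promoter: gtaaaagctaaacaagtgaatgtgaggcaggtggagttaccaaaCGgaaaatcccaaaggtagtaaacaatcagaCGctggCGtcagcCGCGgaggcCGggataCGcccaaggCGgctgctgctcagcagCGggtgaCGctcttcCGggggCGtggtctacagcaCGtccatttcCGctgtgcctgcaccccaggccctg
Tfb1m promoter: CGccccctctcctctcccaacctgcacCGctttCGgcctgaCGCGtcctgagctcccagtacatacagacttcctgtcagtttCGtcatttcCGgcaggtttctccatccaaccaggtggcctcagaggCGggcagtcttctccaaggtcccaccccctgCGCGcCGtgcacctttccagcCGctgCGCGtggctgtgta

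Letters that NRF1 and factors of the ETS family, to which GABPA belongs, are known to bind were searched in the promoter sequences of the RefSeq table, each of 300 bases and reaching from upstream of the start site to just inside the gene, on both strands. GCATGCGC, the core of the NRF1 motif, was present at Tfb2m and Polrmt, and in 2.71% of the 32851 RefSeq promoters. CCGGAAG, the ETS letters, was present at 6 of the 10 genes (Tfam, Polrmt, Polg, Polg2, Ssbp1 and Gabpa) and in 8.86% of those promoters. Both sets of letters hold a CpG, and the promoters of the 10 genes had a median of about 21 CpG against 7 over all RefSeq promoters. The shares were not matched for CpG content. No ETS letters overlapped an NRF1 core. The lines below show 30 bases around each match, with the match in capitals, for the genes with an NRF1 core and for Tfam and Polg2, whose values are followed furthest in the results. A match says that the letters are there and not that a factor was bound, and absence of these letters from other starts says nothing about the factor. The Tfam stretch is chr10:71238073-71238102 and the Polg2 stretch is chr11:106779548-106779577, both on the minus strand. The Tfb2m stretch is chr1:179546247-179546276, and the Polrmt stretches are chr10:79746696-79746725 for the NRF1 core and chr10:79746606-79746635 for the ETS letters, all on the minus strand.
Tfb2m, NRF1 core letters: ggctaggtcgttcGCATGCGCcattcgtaa
Polrmt, NRF1 core letters: agagtatttctGCGCATGCtctcttgccgc
Polrmt, ETS letters: ccctaagagcgCTTCCGGcagtcgcagaac
Tfam, ETS letters: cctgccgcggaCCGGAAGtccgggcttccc
Polg2, ETS letters: cgggtgacgctCTTCCGGgggcgtggtcta

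Facts of the whole series that touch these genes were few. KDM2A lists were shorter in KO, with 15387 to 21705 peaks against 23372 to 29105 in WT. H3K36me2 lists held 85387 to 94136 peaks in WT and 106720, 37447 and 45180 in KO, so KO replicate 1, the male library, stood apart from the other KO lists. The number of reads behind a list was unknown, and a shorter list from fewer reads cannot be told apart from less binding. As a check of the cell type, KDM2A lay near a transcription start site (TSS) in all 6 lists at 5 of 7 B cell marker genes, 1 of 6 T cell genes and 1 of 4 myeloid genes. Peaks measure binding and not expression, and the host gene of miR-155, Mir155hg, had KDM2A peaks in all 6 lists, which checks neither genotype. A peak's fold is the ratio of ChIP to background signal that the authors' peak caller gave over the whole peak.

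Where KDM2A lay on these genes was the first question. A gene was scored within 2 kb of each of its annotated TSS, and these windows together spanned between 4048 bp (Tfb1m) and 20213 bp (Nrf1), against a median of 6823 bp over protein-coding genes. All 10 genes had a KDM2A peak in at least 2 of the 6 lists, and 6 of them (Tfb2m, Polg, Polg2, Twnk, Nrf1 and Gabpa) had one in all 6. Over all protein-coding genes 26.4% had a peak in all 6 lists and 39.2% had none in any. With a single window around the 5′ end of each gene, which gives every gene the same length, there were 6 genes in all 6 lists against 23.5% of protein-coding genes. With lists cut to the same length by fold, 5 of the 10 genes had a peak in all 6 lists, against 20.6% of protein-coding genes.

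**Figure D1:**
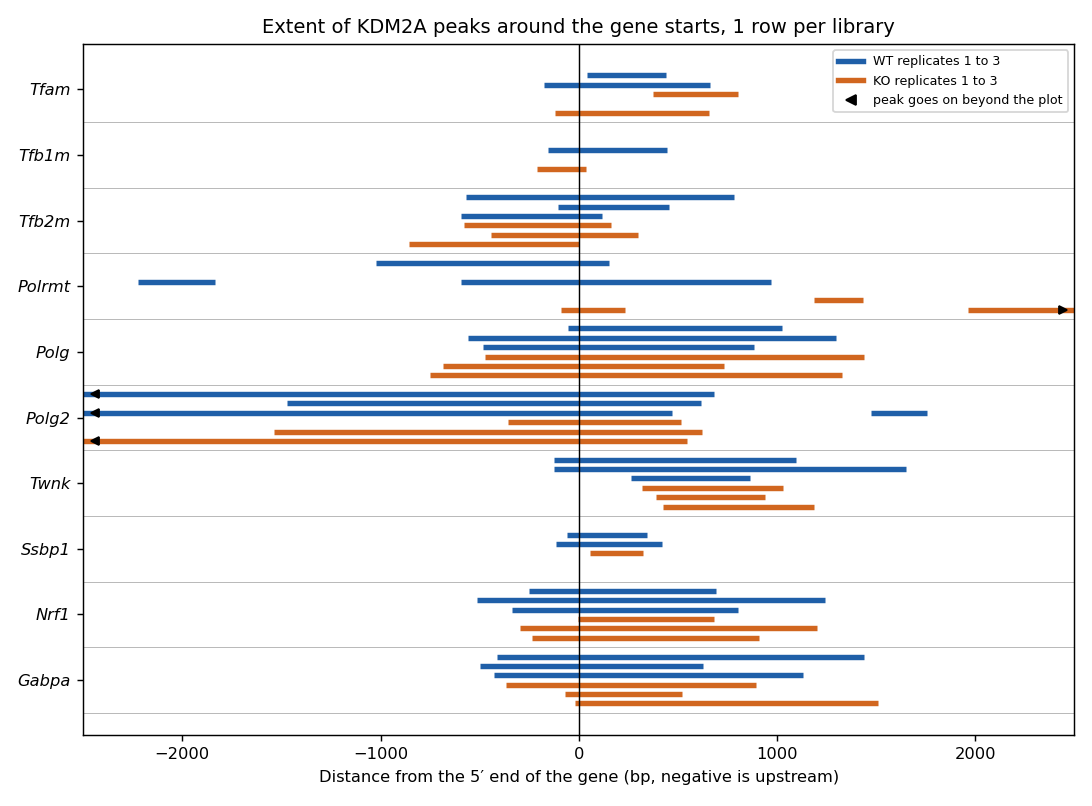
Extent of KDM2A peaks around the 5′ end of each gene, in bp on the horizontal axis with negative values upstream, with 1 row per library (blue WT, orange KO, replicates 1 to 3 from top to bottom). Peaks cover or adjoin the gene start at most genes, lie inside the gene at Twnk in 4 libraries and at Tfam in 2, and run on upstream at Polg2 in the 3 libraries marked with arrows.

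The genes of both nuclear factors, Nrf1 (chr6:30047988-30153458, plus strand, ENSMUSG00000058440.14) and Gabpa (chr16:84834925-84863779, plus strand, ENSMUSG00000008976.16), had KDM2A over the start in every library. The peaks at Nrf1 merged into chr6:30047472-30049232, from position -516 to position 1244 relative to the 5′ end. At Gabpa they merged into chr16:84834429-84836433, from position -496 to position 1508. At both genes the peak crossed the 5′ end in all 6 libraries. Gabpa shares this start with Atp5j, a subunit gene of ATP synthase on the other strand with a TSS 31 bp away, so the peak belongs to both genes.

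The replication genes are Polg (chr7:79446231-79466362, minus strand, ENSMUSG00000039176.17), Polg2 (chr11:106768253-106779537, minus strand, ENSMUSG00000020718.12), Twnk (chr19:45005663-45012762, plus strand, ENSMUSG00000025209.5) and Ssbp1 (chr6:40471352-40484700, plus strand, ENSMUSG00000029911.14). Polg had a peak over its 5′ end in all 6 libraries, merged into chr7:79464925-79467115, with widths from 1077 to 2082 bp. Gm10616, an annotated transcript on the other strand, starts 47 bp from Polg. The Polg2 peak also crossed the 5′ end in all 6 libraries, but its width ran from 869 to 10656 bp. In WT replicates 1 and 3 and KO replicate 3 it was 10568, 10530 and 10656 bp wide and took in all of Ddx5, an RNA helicase gene upstream on the same strand. A fold over such a peak describes both genes together. The Twnk peaks crossed the 5′ end in WT replicates 1 and 2 only, and in the other 4 libraries they began 263, 321, 391 and 423 bp inside the gene. Twnk has few CpG in the 200 bases printed above and shares the region with Mrpl43, a mitochondrial ribosomal protein gene on the other strand with a TSS 116 bp away. Ssbp1 had a peak of 268 to 537 bp in WT replicates 2 and 3 and KO replicate 1 and none in the other 3 libraries.

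The genes of transcription and packaging are Tfb2m (chr1:179528055-179546267, minus strand, ENSMUSG00000026492.11), Tfam (chr10:71225464-71238280, minus strand, ENSMUSG00000003923.14), Tfb1m (chr17:3519256-3557781, minus strand, ENSMUSG00000036983.7) and Polrmt (chr10:79736123-79746581, minus strand, ENSMUSG00000020329.12). Tfb2m had a peak in all 6 libraries, merged into chr1:179545485-179547125, in a region shared with Cnst, whose TSS lay 103 bp away on the other strand. Tfam had a peak in 4 libraries, merged into chr10:71237476-71238457, which reached upstream to position -177 and held 644 bp of exon. The Tfam peak crossed the 5′ end in WT replicate 3 and KO replicate 3, and lay inside the gene from 40 to 438 bp in WT replicate 2 and from 372 to 804 bp in KO replicate 1. Tfb1m had a peak in 1 WT and 1 KO library, the fewest of the 10 genes, and a noncoding gene on the other strand, 1700102H20Rik, starts 43 bp away. Polrmt was the exception in shape: its 11 annotated TSS placed windows over most of the gene, and peaks of 244 to 1565 bp were scattered along it in 5 libraries, with a peak over the 5′ end in 3. A wider peak of 1674 bp in WT replicate 3 touched the windows but lay past the gene's 3′ end, inside the neighbouring Hcn2. Polrmt had no peak in KO replicate 1.

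Most of these genes had more CpG at the start than the median gene, and Polrmt had as many. Within 500 bp of the 5′ end, Nrf1 held 118 CpG, Polg 101 and Tfb2m 91, then Gabpa 68, Tfb1m 62, Tfam 60, Polg2 and Ssbp1 57 each, Twnk 53 and Polrmt 41. The median was 61 for the 10 genes and 41 over protein-coding genes. Over all protein-coding genes the median CpG count rose from 12 where no library had KDM2A at the 5′ end to 72 where all 6 had it. Among the 11040 genes with at least 41 CpG, as all 10 genes had, 41.4% had KDM2A in all 6 libraries and 78.6% in at least 2, against 6 and 10 of the 10 genes. Of genes with fewer CpG, 5.39% had it in all 6. The 3 most CpG-rich members all had KDM2A in all 6 libraries, but the order below them was not that of CpG: Tfb1m with 62 had KDM2A in 2 libraries and Twnk with 53 in 6.

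**Figure D2:**
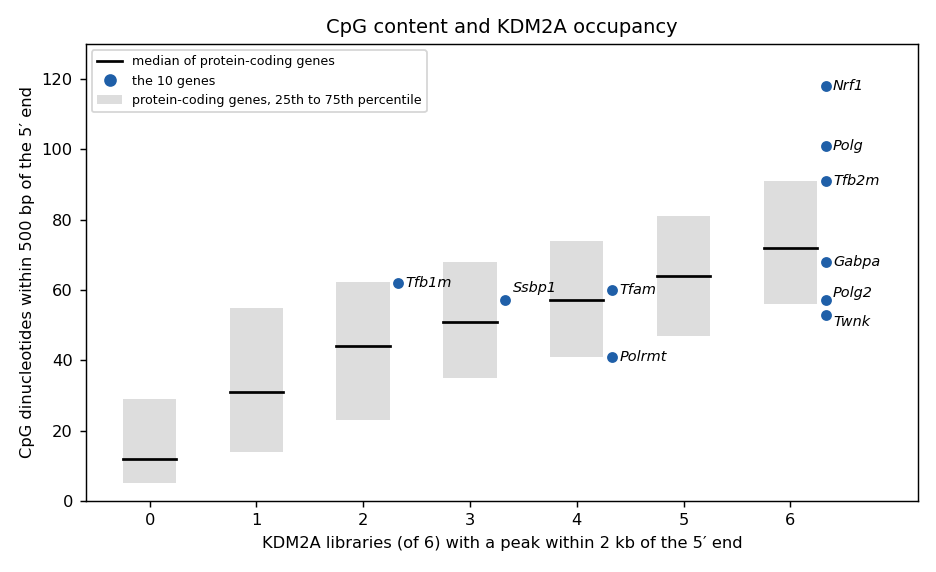
CpG dinucleotides within 500 bp of the 5′ end (vertical axis, count) against the number of KDM2A libraries with a peak within 2 kb of the 5′ end. Grey bars span the middle of the distribution of protein-coding genes (lower to upper quartile) and black lines are their medians, which rise from 12 to 72, and blue points are the 10 genes, with Tfb1m at 62 level with the top of its bar and Twnk at 53 below the bottom of its bar.

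Whether KDM2A was higher or lower in KO was asked next, and for 6 genes a fold was available in every library. The fold was the highest of the peaks touching the TSS windows, in the order replicate 1, 2 and 3. Polg2 had folds of 4.19, 5.72 and 4.43 in WT and 3.67, 3.36 and 3.99 in KO, so every KO library lay below every WT library. The WT mean was 4.78 ± 0.825 and the KO mean 3.67 ± 0.316 (SD, n = 3 per genotype). A two-sided exact permutation test gave p = 0.1, which is as low as 3 against 3 libraries can go. In limma, fitted over the 5786 genes with a peak in all 6 lists on log2 fold centred on each library's median, the difference at Polg2, KO minus WT, was -0.31 (SE 0.13, adjusted p = 0.914). In WT replicates 1 and 3 and KO replicate 3 these folds are those of the peak that also covers Ddx5, and without WT replicate 2 the difference was -0.20.

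Polg, the catalytic subunit, had folds of 4.45, 3.56 and 3.04 in WT and 2.84, 2.98 and 3.17 in KO. The KO range reached into the WT range, and the means were 3.68 ± 0.712 and 2.99 ± 0.164 (SD, n = 3 per genotype, exact permutation p = 0.2). Its limma difference was -0.22 (SE 0.14, adjusted p = 0.914), and it came to -0.05 without WT replicate 1, the library with the fold of 4.45. Twnk had folds of 4.14, 3.07 and 2.83 in WT and 3.48, 2.74 and 3.57 in KO, which overlapped, with means of 3.35 ± 0.695 and 3.26 ± 0.455 (SD, n = 3 per genotype). At the genes of the nuclear factors the libraries overlapped as well. Nrf1 had 2.78, 3.19 and 2.68 in WT and 3.04, 2.47 and 2.91 in KO. Gabpa had 3.32, 3.36 and 2.97 in WT and 3.06, 3.22 and 2.88 in KO. Tfb2m, the remaining gene with 6 values, had 3.24, 2.76 and 3.54 in WT and 3.04, 3.02 and 3.23 in KO. The limma differences of Twnk, Nrf1, Gabpa and Tfb2m lay between -0.01 and 0.04 on the log2 scale.

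Polg2 was thus the 1 gene of 6 with every KO library below every WT library, a separation found at 5.17% of all genes tested. It was also the 1 gene of 6 with an unadjusted p under 0.05 and a lower fold in KO, against 2% of all genes. No member had such a p without WT replicate 2, KO replicate 1 or KO replicate 2, by percentile rank, or with the mean fold of the peaks in place of the highest, and with the mean fold the Polg2 libraries also overlapped. After adjustment 0% of the 5786 genes passed 0.05 in limma (0 calls, 299 at an unadjusted p under 0.05), and no member did. The median difference was 0.01 for the 6 genes and 0.00 for all. Without centring of the libraries all 6 genes were lower in KO, as were 68.7% of all genes tested, and with it 3 of 6 were, against 49.3%. Centred folds were lower in KO at 5 of 6 genes without WT replicate 2 (median -0.07) and without WT replicate 3 (median -0.06), and at 5 of the 7 then tested without KO replicate 1.

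**Figure D3:**
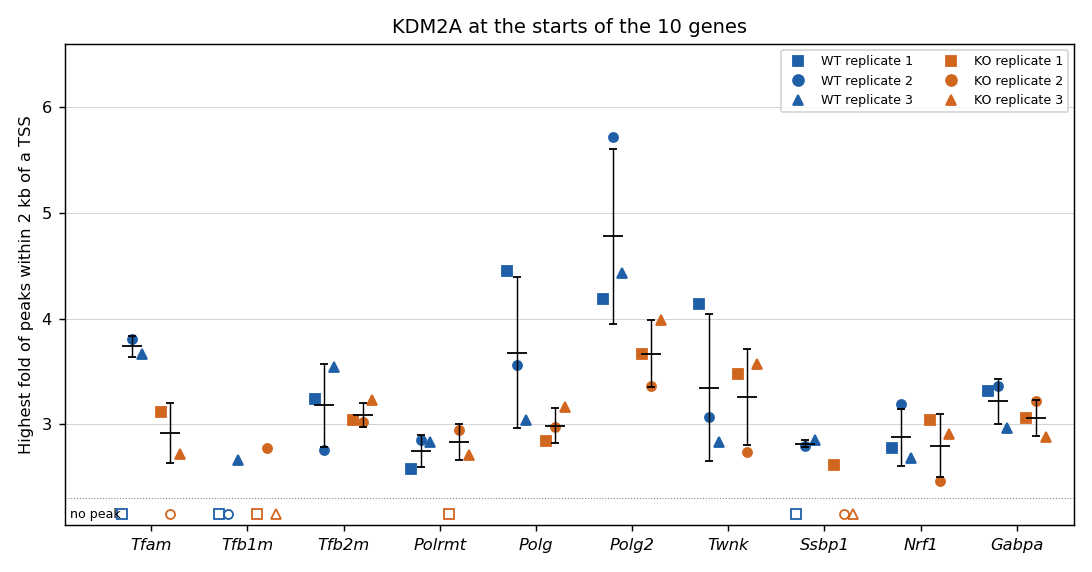
Highest KDM2A fold of the peaks within 2 kb of a TSS (vertical axis, ratio as deposited, on an axis that does not start at 0) for each gene and library, blue WT and orange KO. Horizontal ticks and bars are the mean and SD over the libraries with a peak, open symbols mark libraries without one, and Polg2 is the gene whose KO values of 3.36 to 3.99 all lie below its WT values of 4.19 to 5.72.

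The other 4 genes lacked a peak in some library. Tfam had folds of 3.81 and 3.67 in WT replicates 2 and 3, and of 3.12 and 2.72 in KO replicates 1 and 3, so both KO values lay below both WT values, with no peak in WT replicate 1 and KO replicate 2. Ssbp1 had 2.80 and 2.85 in WT replicates 2 and 3 and 2.62 in KO replicate 1. Polrmt ranged from 2.58 to 2.85 in WT and was 2.95 and 2.71 in KO replicates 2 and 3. Tfb1m had 2.66 in WT replicate 3 and 2.78 in KO replicate 2. No test was made on folds with missing libraries.

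The study sorted KDM2A intervals by a rule of size, which was applied to the intervals near these genes. An interval merged over the 6 lists was bound in a genotype with a peak in at least 2 of its 3 libraries, and was WT-enriched where the mean WT fold was over 3 and, if bound in both, over 1.17 times the KO mean, and KO-enriched the other way round. The windows of the 10 genes held 10 bound intervals, 2 of them at Polrmt and none at Tfb1m. Of these, 3 were WT-enriched, at Tfam, Polg and Polg2, and none was KO-enriched. Over all 10952 bound intervals near protein-coding TSS, 10.5% were WT-enriched and 2.24% KO-enriched. At the Tfam interval the WT mean was 3.74 ± 0.0971 and the KO mean 2.92 ± 0.282 (SD, n = 2 libraries per genotype). At Polg the means were 3.68 ± 0.712 and 2.99 ± 0.164, and at Polg2, with the stretch over Ddx5 included, 4.78 ± 0.825 and 3.97 ± 0.149 (SD, n = 3 per genotype). The ratio of the means, WT over KO, was 1.28 at Tfam, 1.23 at Polg and 1.2 at Polg2. The rule has no test, and these 3 calls moved with single WT libraries. Without WT replicate 2 only Polg was WT-enriched, without WT replicate 1 Polg was lost, and without WT replicate 3 Tfam was lost. Tfam had KDM2A in WT replicates 2 and 3 only, so its loss without either of them follows from the rule. Leaving out a KO library kept all 3 genes, but for Tfam, with KDM2A in KO replicates 1 and 3 only, this follows from the rule when either of them is left out.

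The extent of KDM2A was read as the percent of the TSS windows under peaks, which keeps libraries without a peak as 0. Polg2 had 33.3%, 25.9% and 49.2% in WT and 10.8%, 26.8% and 31.6% in KO, and Twnk had 24.9%, 36.3% and 12.3% in WT and 14.5%, 11.2% and 15.6% in KO. The genotypes overlapped at both. The limma difference was -13.1 percentage points at Polg2 (SE 9.66, adjusted p = 0.66) and -10.7 at Twnk (SE 7.21, adjusted p = 0.63). Single libraries moved both: Polg2 came to -6.56 without WT replicate 3 and -6.96 without KO replicate 1, and Twnk to -4.85 without WT replicate 2 and -16.9 without WT replicate 3. Tfam had 0%, 5.73% and 12.1% in WT and 6.22%, 0% and 11.2% in KO, so the genotypes overlapped in extent. Polrmt had 15.5%, 11.7% and 24.3% in WT and 0%, 9.85% and 17.1% in KO, which overlapped too. Coverage ranged from 3.77% to 16.1% over all libraries at Tfb2m, Polg and Gabpa and from 3.4% to 8.71% at Nrf1. Ssbp1 reached 6.57% and Tfb1m 14.7%, each with libraries at 0%. Tested were 9 of the 10 genes (all but Tfb1m), of which 8 had a lower mean in KO, against 75.6% of all genes, and Polg a higher one (4 of the 9 were lower when each library was divided by its mean coverage, against 49.5% of all genes, or ranked, against 46.3%), with a median difference of -2.47 against -2.99 over the 10427 genes tested. None of the 9 genes had every KO library below every WT library, against 14.8% of all genes, and 0% of genes passed an adjusted p of 0.05 in limma (0 calls, 1000 at an unadjusted p under 0.05).

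H3K36me2 near the starts of these genes was sparse and mostly a WT signal. Every one of the 10 genes had an H3K36me2 peak within 2 kb of a TSS in more WT than KO libraries, against 37.5% of protein-coding genes. At 5 genes (Tfam, Tfb1m, Polg2, Twnk and Gabpa) the peaks were in WT libraries only, against 13.2%. Both shares are over all protein-coding genes, of which 57.1% had such a peak in any library, as all 10 genes did. Genes without any peak cannot enter either count and so lower both shares. Counted by library, 7, 8 and 4 of the 10 genes had a peak in WT and 2, 1 and 3 in KO. Over all protein-coding genes the shares were 39.3%, 40.6% and 41.4% in WT and 38.6%, 16.1% and 17.7% in KO. KO replicate 1 was thus close to the WT libraries over all genes. Over these 10 it had 2 genes with a peak against 4 to 8 in WT, and this contrast was not tested. Of the 11571 genes with KDM2A near a TSS in at least 2 libraries, as all 10 genes had, 58.4% had H3K36me2 in more WT than KO libraries, and 19% in WT libraries only.

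These counts moved with the choice of peaks. The 32 WT peaks in the windows had folds of 2.23 to 3.57 with a median of 2.52, and the 7 KO peaks had folds of 2.54 to 2.82 with a median of 2.79, where the lists' own median folds ran from 2.48 to 2.73. With lists cut to equal length by fold, 4 of the 10 genes instead of 10 had a peak in more WT than KO libraries, against 22.9% of all genes. With peaks of a −log10 q of at least 2, 3 of the 10 genes had any H3K36me2 peak, all in WT libraries, against 26.7% of all genes with any. In bp covered every KO list lay below every WT list, although KO replicate 1 held the most peaks. The bp covered by a list and its genotype cannot be told apart here.

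Tfam was the gene where all 3 WT libraries had H3K36me2 near the TSS and no KO library did. The peaks covered 12.1%, 17.3% and 3.94% of its windows in WT and 0%, 0% and 0% in KO. In WT replicate 1 the peak lay upstream, from position -1722 to -878. In WT replicate 2 there was an upstream peak from -1137 to -535, which overlapped that of replicate 1, and another from 979 to 1580 inside the gene. In WT replicate 3 a peak of 4382 bp ended at position -1727, farther upstream. All 4 peaks lay beside the KDM2A interval and none touched it. Tfam passed the filter of coverage in at least 3 libraries through its WT libraries alone, so the fit and test that follow are given as a description. The WT mean was 11.1% ± 6.75 and the KO mean 0% (SD, n = 3 per genotype, exact permutation p = 0.1). The limma difference was -11.1 percentage points (SE 4.3, adjusted p = 0.187).

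Nrf1 had 14%, 5.82% and 16.1% in WT and 9.35%, 0% and 4.29% in KO, which overlapped. Its difference in limma was -7.43 (SE 6.03, adjusted p = 0.406). Polrmt had 14% and 12% in WT replicates 1 and 2 and 2.70% in KO replicate 2, with 0% in the other libraries. Twnk had 17.3% and 8.25% in WT replicates 2 and 3 and 0% elsewhere. Ssbp1 went the other way in its mean, with 2.97% and 8.56% in WT replicates 1 and 3 and 12.8% in KO replicate 3. At Tfb2m 2 WT libraries (2.69% and 6.68%) and KO replicate 3 (3.03%) had coverage, and at Polg 2 WT libraries (2.36% and 3.37%) and KO replicate 1 (2.71%). Tfb1m, Polg2 and Gabpa each had coverage in a single WT library, of 4.69%, 4.05% and 2.93%.

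Tested were the 6 genes with coverage in at least 3 libraries (Tfam, Tfb2m, Polrmt, Polg, Ssbp1 and Nrf1). Since the filter can keep a gene through WT libraries alone, as with Tfam, the counts that follow describe those 6 only. Of these, 5 had a lower mean in KO, against 91.2% of all genes tested, while 4 did when each library was divided by its mean coverage, against 59%, and 2 by rank within each library, against 48.2%. Tfam alone had every KO library below every WT library, against 29.4% of all genes tested, and alone had an unadjusted p under 0.05 with a lower value in KO, against 21.7%. The median difference was -4.77 for the 6 genes and -8.87 for the 8313 genes tested. Without KO replicate 2 the median of the members still tested was -1.61, and without KO replicate 1 or 3 it was -7.31. After adjustment 0% of these genes passed 0.05 in limma (0 calls, 1817 at an unadjusted p under 0.05).

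**Figure D4:**
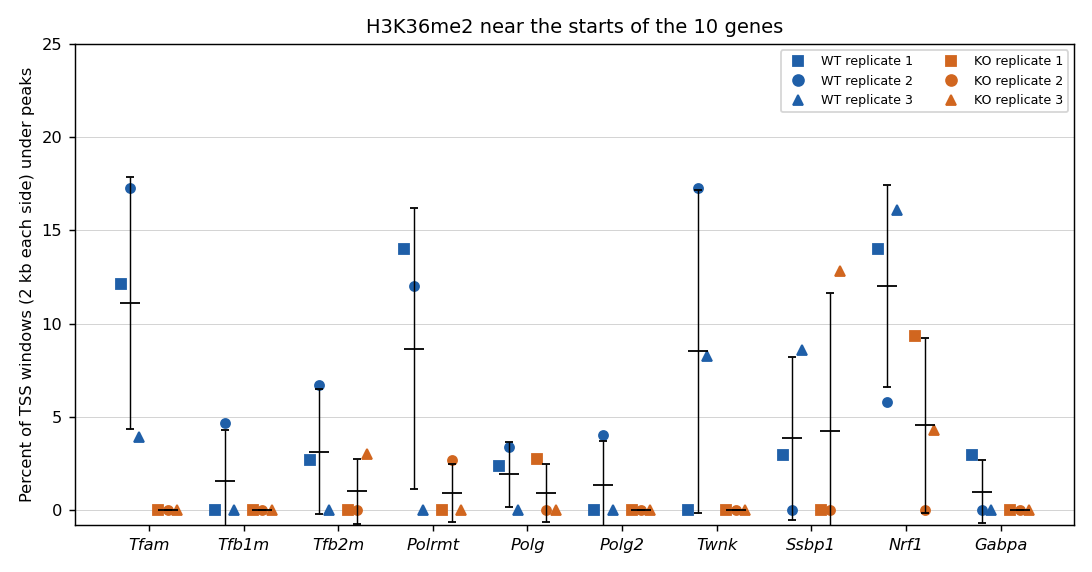
Percent of the TSS windows of each gene under H3K36me2 peaks (vertical axis), by library, blue WT and orange KO, with the mean and SD over 3 libraries as black ticks and bars that can reach below 0 and are cut at the lower edge of the plot. Tfam has values of 3.94 to 17.3 in WT and 0 in every KO library, and 5 genes have no KO library above 0.

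The distance from the 5′ end to the nearest H3K36me2 peak describes the same mark without a window. The median over the 10 genes was 1064, 1556 and 3408 bp in the WT libraries and 7166, 81170 and 29324 bp in KO. Over protein-coding genes the WT libraries gave 9556, 7316 and 7396 bp, and the KO libraries 7696, 43902 and 36172 bp. By these medians the mark lay nearer to the 10 genes than to protein-coding genes in WT, and far from both in KO replicates 2 and 3. Single genes departed from this. The nearest peak lay 737 bp from Polrmt in KO replicate 2 and 32113 bp from Polg in WT replicate 3. At Gabpa the nearest peak lay 1115, 21435 and 20784 bp away in the WT libraries and 55337, 142376 and 51420 bp away in the KO libraries, and at Tfam 878, 535 and 1727 bp in WT and 4743, 4126 and 5900 bp in KO. Every KO distance exceeded every WT distance at both genes, and at 4 of the 10 genes in all, against 15.2% of protein-coding genes.

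Direct overlap of the enzyme with its substrate mark was rare. Of the 34 KDM2A peaks in the windows of the 10 genes in WT, 6 (17.6%) overlapped an H3K36me2 peak of the library with the same genotype and replicate number, at Tfb2m, Polrmt, Polg, Polg2, Nrf1 and Gabpa. Over all protein-coding windows 25.2% of KDM2A peaks did. In KO 0 of 29 did, against 8.77% over all windows. These peaks are repeat calls at the same genes in 3 libraries per genotype and not independent of each other. That equal numbers mark the same animal was not stated.

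Over the gene bodies, Nrf1 was the only member with H3K36me2 in all 6 libraries. Its peaks covered 8.21%, 6.53% and 11.2% of the gene in WT and 3.88%, 5.27% and 2.49% in KO, so every KO library lay below every WT library. The WT mean was 8.64% ± 2.36 and the KO mean 3.88% ± 1.39 (SD, n = 3 per genotype, exact permutation p = 0.1), and the limma difference was -4.76 percentage points (SE 3.03, adjusted p = 0.28), which turned positive with scaled or ranked coverage. Such a separation was found at 33.7% of the 8632 genes tested, of which 0% passed an adjusted p of 0.05 (0 calls in limma, 2230 at an unadjusted p under 0.05), and the median difference over all genes was -5.38. Without KO replicate 1 this fit gave 1695 calls, and with female libraries only it gave 3008. When each library was divided by its mean coverage the difference at Nrf1 was 0.31 times the mean coverage, higher in KO. Of the lists, KO replicate 1 covered 98879420 bp and the other KO lists 43256320 and 39381256 bp, against 113709956 to 145128277 bp in WT.

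The peaks over Nrf1 lay in the 5′ part of its 105471 bp, between the TSS and 40767 bp, within introns. WT replicate 3 had a peak of 5216 bp from 22241 to 27456 bp, where WT replicate 1 had one from 22202 to 24874 bp and WT replicate 2 one from 22596 to 24452 bp. All 3 thus covered 22596 to 24452 bp, where no KO library had a peak, and likewise 37097 to 37402 bp. They also shared 26880 to 27456 bp, where KO replicate 1 had a peak from 27061 bp. A further shared stretch, 39563 to 39941 bp, was covered in KO replicate 3. KO replicate 2 had its widest peak, 4595 bp, from 8890 to 13484 bp, and KO replicate 3 from 39137 to 40767 bp. The height did not separate the genotypes: the WT libraries had highest folds of 2.98, 2.90 and 2.64 and the KO libraries 3.00, 2.56 and 2.83, a difference of -0.05 on the log2 scale (SE 0.07, adjusted p = 0.964, limma over 3261 genes). For that measure 6.13% of genes had every KO library below every WT library and 0% passed the adjusted threshold (0 calls, 183 at an unadjusted p under 0.05).

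**Figure D5:**
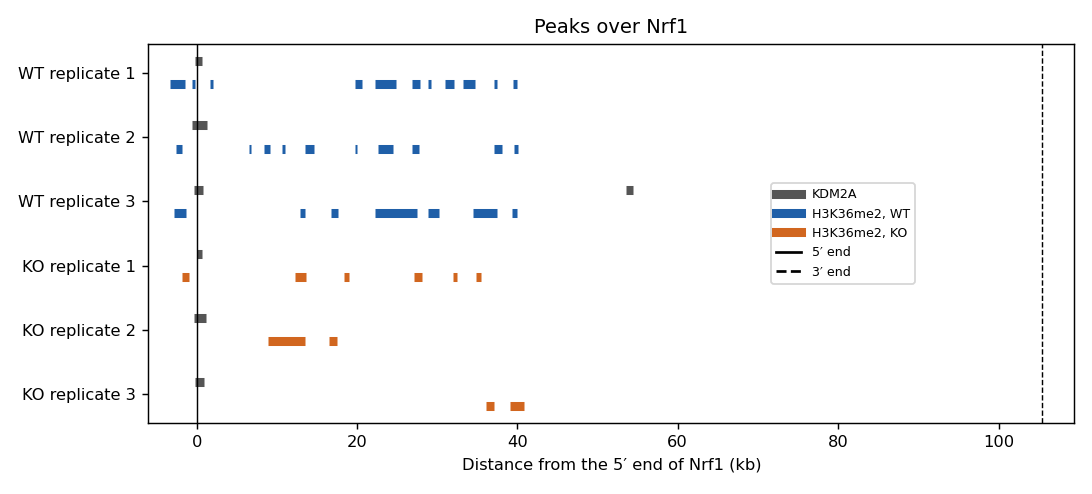
Peaks over Nrf1 in each library, by distance from the 5′ end in kb, with H3K36me2 in blue (WT) or orange (KO), KDM2A in grey, and the 5′ and 3′ ends of the gene as solid and dashed lines. KDM2A lies at the 5′ end in all 6 libraries, and H3K36me2 inside the gene ends by 40767 bp. The stretch from 22596 to 24452 bp is covered in the 3 WT libraries and in none of the KO libraries. The stretches from 26880 to 27456 bp and from 39563 to 39941 bp, shared by the WT libraries, also meet a KO peak.

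The bodies of the other 9 genes had the mark in at most 2 libraries each, and mostly in WT replicate 2, where 7 of the 10 genes had a body peak against 43.1% of protein-coding genes. Ssbp1 had no H3K36me2 peak over its body in any library. Tfb1m had 2.53% and 2.12% in WT replicates 2 and 3 and Twnk 13.8% and 5.69% in the same libraries, with 0% in KO. Polg had 2.28% in WT replicate 1 and 2.62% in KO replicate 1, and Tfam, Tfb2m, Polrmt, Polg2 and Gabpa had a peak in 1 WT library only, with 8.36% at Polg2 in WT replicate 2. The Twnk value of 13.8% was above every Nrf1 value. The peak of WT replicate 3 in Tfb1m lies in a stretch shared with Tiam2, and the outer peak of WT replicate 2 in Polg2 lies partly in Milr1, so those values are shared with the neighbours. Both Polg peaks lie outside Fanci, which overlaps another stretch of the gene.

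Other genes of the same processes were read from lists of 42 symbols, all matched, grouped by role. KDM2A was near a TSS in all 6 libraries at 21 of the 42, against 26.4% of protein-coding genes. H3K36me2 lay near a TSS of 25 genes in more WT than KO libraries, of 1 in more KO libraries and of 8 in none, where 37.5% of protein-coding genes, and 58.4% of those with KDM2A in at least 2 libraries, had it in more WT libraries. No gene of the lists passed an adjusted p of 0.05 in limma. For KDM2A extent 3 of 35 tested had an unadjusted p under 0.05, all lower in KO, against 9.04% of all genes, with a median of -2.87 percentage points. For H3K36me2 near the TSS 3 of 20 did, all lower, against 21.7% of all genes, with a median of -3.19. Over all genes tested the medians were -2.99 and -8.87. The named genes of each list are those with the largest difference, and all are lower in KO in the measure that named them. Lower means in KO were found at 15 of 21 genes for KDM2A fold, 31 of 35 for KDM2A extent, 12 of 13 for H3K36me2 over the body and 18 of 20 for H3K36me2 near the TSS, against 49.3%, 75.6%, 93.3% and 91.2% of all genes tested. Every KO library lay below every WT library at 6 of the 35 genes in KDM2A extent and at 4 of the 20 in H3K36me2 near the TSS, against 14.8% and 29.4% of all genes, and Exog and Phb2, and Top3a, Lonp1 and Dguok, are among them. Exog in KDM2A and Lonp1 in H3K36me2 had 0% in every KO library and passed the coverage filter through WT alone. Both are also among the unadjusted counts above, so these counts are a description. Sucla2, a subunit of succinyl-CoA ligase chosen here after its values were seen, had KDM2A over 2.17%, 0% and 3.46% in WT and 4.43%, 4.92% and 6.12% in KO, with every KO library above every WT library, as at 1.4% of all genes (difference 3.28, SE 1.57, limma adjusted p = 0.554). Clpp, a protease subunit, and Top3a were also higher in KO in KDM2A extent, by 5.32 and 4.77 percentage points with overlapping libraries, and these values were likewise added after they were seen. Clpp had 14.5%, 18% and 8.98% in WT and 18.3%, 29.3% and 9.76% in KO. Top3a had 16.8%, 11% and 17.2% in WT and 14.2%, 10.3% and 34.8% in KO, so only KO replicate 3 lay above its WT range.

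Among 9 genes of replication and repair, 7 had H3K36me2 in more WT than KO libraries, to be read against the same shares. Exog, a mitochondrial nuclease, had KDM2A over 8.83%, 6.18% and 8.92% of its windows in WT and 0% in each KO library (limma difference -7.98, SE 1.61, adjusted p = 0.29), and it passed the coverage filter through WT alone. Top3a, a topoisomerase, had H3K36me2 over 5.11%, 28.7% and 12.1% in WT and 2.62%, 0% and 0% in KO. Fen1, a flap nuclease, had KDM2A over 20.2%, 23.9% and 10.1% in WT and 21.7%, 0% and 0% in KO, which overlapped. Of 6 nucleoid genes, 5 had KDM2A in all 6 libraries, to be read against the 26.4% of protein-coding genes. Phb2, a prohibitin of the inner membrane, had KDM2A over 49.1%, 39.0% and 27.4% in WT and 3.20%, 8.25% and 20.1% in KO (adjusted p = 0.389, limma). Lonp1, the protease that degrades TFAM, had H3K36me2 over 14.7%, 7.30% and 11.6% in WT and 0% in every KO library (adjusted p = 0.185, limma), and like Exog and Tfam it passed the filter through WT alone. Clpx, a chaperone subunit, had H3K36me2 differing by -13.1 percentage points with overlapping libraries.

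Of 10 nuclear regulators, 8 had KDM2A in all 6 libraries, where 26.4% of protein-coding genes did. Ppargc1b, a coactivator of NRF1 and ESRRA, had H3K36me2 over 14.0%, 21.3% and 17.5% of its body in WT and 9.31%, 0.315% and 5.21% in KO, and Pprc1, a related coactivator, 25.9%, 13.1% and 16.7% in WT and 12%, 0% and 11.5% in KO. At both every KO library lay below every WT library, as at 33.7% of all genes tested, and both were named for the size of this difference. Esrra, a nuclear receptor, had H3K36me2 near its TSS over 32.1%, 0% and 49.5% in WT and 15.3%, 0% and 0% in KO. Nucleotide supply had KDM2A in all 6 libraries at 2 of 9 genes. Dguok, a mitochondrial deoxyguanosine kinase, had H3K36me2 over 14.6%, 14.1% and 5.90% in WT and 0%, 0% and 4.95% in KO, while Samhd1 and Suclg1 differed by -4.25 and -4.23 percentage points in KDM2A near the TSS and H3K36me2 over the body, with overlapping libraries. Suclg1 had 16.2%, 6.23% and 2.59% in WT and 5.24%, 3.66% and 3.41% in KO, so WT replicate 1 stood apart. For transcription and RNA, 2 of 8 had KDM2A in all 6 libraries. Mrpl12, a ribosomal protein that binds POLRMT, had KDM2A over 73.3%, 37.1% and 100% in WT and 32.3%, 18.7% and 52.8% in KO, which overlapped. Tefm, the elongation factor of the mitochondrial polymerase, and Slirp, an RNA-binding protein, also overlapped between genotypes, with differences of -10.9 in H3K36me2 and -5.49 in KDM2A near the TSS. Tefm had 37.4%, 11.4% and 17.3% in WT and 4.39%, 10.1% and 19.1% in KO. Slirp had 10.2%, 6.42% and 10.6% in WT and 10.8%, 0% and 0% in KO. Single libraries thus weighed on both differences.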

How the data were processed

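Reads were processed by the authors with nf-core/chipseq (BWA on GRCm38, broad peaks from MACS2), and 1 list per library was deposited, without pooling. The deposited fold is a ratio over the control signal. The deposited −log10 of the q-value was used to set a stricter peak list. Read filters and the MACS2 version are not given in the sources used here. Depth is unknown, and no interval from counting reads is given.

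Genes came from GENCODE M21 and sequences from RefSeq GRCm38.p6 (10 of 10 genes matched). All 590705 peaks lay within GRCm38 chromosomes. Coverage was the percent of a region under peaks, and genes covered in at least 3 of 6 libraries were tested. Fold was log2 of the highest fold, centred on each library's median, for genes with a peak in all 6. Each was fitted with limma 3.58.1 (R 4.3.3; lmFit, eBayes with trend), without a block, and adjusted over all genes by Benjamini-Hochberg with a threshold of 0.05. The fit was tested on simulated data. Single genes had two-sided exact permutation tests over libraries (scipy 1.17.1, Python 3.11.15, pandas 2.3.3, numpy 2.4.6). Named genes were all 10, genes sharing their start sites, and the 3 of each related list with the largest coverage difference. Ddx5, Hcn2, Sucla2, Clpp, body-overlapping genes and single-library examples were added after their values were seen. Alternatives were leaving out each library, a replicate block, females only, equal peak numbers, stricter peaks, all annotated genes, ranks, scaling or no centring, no filter, a 200 bp overlap, mean fold, and narrower regions. The genes and lists were chosen with earlier results of these data known.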

Additional observations from a re-analysis of the deposited data

Results flagged for a closer look

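At Tfb2m and Ssbp1 the KDM2A coverage of the TSS windows differed one way in the male pair and, with no overlap, the other way in the female libraries, as at 11.9% of the 10427 genes tested. The difference was not tested, since each genotype has 1 male library. For Tfb2m the male pair differed by -7.29 percentage points, KO minus WT (8.80% against 16.1%), while both female KO libraries (8.85% and 10.2%) lay above both female WT libraries (6.71% and 8.47%). For Ssbp1 the male pair differed by 3.28 percentage points (3.28% against 0%), while the female libraries had 4.95% and 6.57% in WT and 0% in both KO libraries.

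Every KDM2A list held 3 peaks on the mitochondrial chromosome, which no comparison of nuclear genes used, and no H3K36me2 list held any.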

How the results depend on the processing

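Over the 5 limma comparisons, 76 of 80 alternatives gave 0 calls, as the reported fits did. The exceptions were H3K36me2 gene-body coverage, with 1695 calls without KO replicate 1 (0 to 1695 when each library was left out), 3008 with female libraries only and 54 over all annotated genes, and H3K36me2 gene-body fold, with 1 call under the replicate block. With female libraries only, 35.9% of genes were called and 1 of 3 members tested, Tfb1m, which passed the coverage filter through WT alone. Replicate numbers were shared between genotypes, but the samples with the same number did not deviate together (correlations of -0.09 to 0.05 over the 5 comparisons), and the replicate block changed no other count of calls. WT-enriched intervals numbered 1146, and 709 to 1917 when a library was left out, KO-enriched ones 245, and 170 to 583, and WT-enriched members 3, and 1 to 3. Member values with every KO library below every WT library numbered 3 of 22 tested over the KDM2A and H3K36me2 measures. When a library was left out they numbered 3 to 6 (6 of 17 without WT replicate 2, 5 of 19 without WT replicate 3). With females only they numbered 8 of 26, and with equal numbers of peaks, stricter peaks or ranks 1 of 16, 12 or 22. The share of all values tested so separated moved too, from 21.7% to 25.4% to 41.9%, 49.8%, and 13.5%, 14.6% or 6.03% in the same order. The 3 include Tfam for H3K36me2 near the TSS, which passed its filter through WT alone, as did Tfb1m with females only. Followed further were 7 member differences. They were KDM2A fold at Polg2 and Polg, KDM2A extent at Polg2 and Twnk, and H3K36me2 body coverage, promoter coverage and body fold at Nrf1. Of their 111 alternatives, 107 kept the direction and none passed the adjusted threshold. These alternatives share libraries, and a difference as small as -0.01 (Polg, female libraries only) counted as kept. Apart from Tfam, other member differences were not followed. Tfam, at 0 in every KO library for H3K36me2 near the TSS, could not change direction and is not counted. The reversals were all at Nrf1: body coverage was 12.3 by percentile rank and 0.31 scaled, promoter coverage 6.05 by rank, and body fold 0.01 with the mean fold. The causes were not tested. Scaling moved the unadjusted split: KDM2A extent had 57 genes higher and 943 lower, and 243 and 447 scaled. Uncentred fold had 41 higher and 303 lower, against 183 and 116 centred. H3K36me2 promoter coverage had 11 and 1806, and 313 and 288 by rank. With unknown depth, an absent peak cannot be told from a shallow library, and 3 libraries per genotype limit every comparison.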

Other observations

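The DNA that the proteins of these genes maintain was itself in the KDM2A lists. The same 3 stretches of the mitochondrial chromosome were called in all 6 libraries. The first was shared by all lists over 6522 bp (positions 18 to 6539) and takes in both ribosomal RNA genes, mt-Nd1 and mt-Nd2. The WT libraries had folds of 2.32, 2.44 and 2.44 there and the KO libraries 1.88, 2.10 and 2.29, with every KO library below every WT library. The last was shared over 5345 bp (positions 10908 to 16252) and takes in mt-Nd5, mt-Nd6 and mt-Cytb. There the WT libraries had folds of 2.92, 3.33 and 3.00 and the KO libraries 2.39, 2.48 and 2.71, again separated. The means of the last stretch were 3.08 ± 0.217 and 2.53 ± 0.165 (SD, n = 3 per genotype, exact permutation p = 0.1). The short stretch between them (503 bp, over mt-Nd3) had folds of 1.79, 1.92 and 1.93 in WT and 1.65, 1.71 and 1.89 in KO, which overlapped. These folds were not centred, and without centring 68.7% of the 5786 nuclear genes tested had a lower KDM2A fold in KO and 10.1% had every KO library below every WT library. Whether reads came from the mitochondrial DNA or from nuclear copies of it was not tested.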
